A study of Mus musculus with 8 samples.

Results

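The angiopoietins, the angiopoietin-like proteins and the vascular endothelial growth factors (VEGF) are secreted signals to blood and lymphatic vessels, and 10 genes of these families and of the VEGF receptors were followed here in cultured cardiac fibroblasts. The 10 were taken by symbol from the 22274 genes of the table, with earlier results of these data known. They were the angiopoietins Angpt1, Angpt2 and Angpt4, the angiopoietin-like genes Angptl1, Angptl2 and Angptl4, the VEGF paralogs Vegfb and Vegfc, and the receptor genes Flt1 and Kdr.

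RNA-seq was performed in primary murine cardiac fibroblasts, the matrix-producing cells of the heart, to ask which transcripts change when the transcription factor IRF7 is overexpressed during fibroblast activation. There were 4 libraries labelled GFP, made from cells given the empty vector (Ad-EV in the study's text), and 4 labelled OEIRF7, made from cells given the IRF7 vector (Ad-FLAG-IRF7). The cells of all 8 libraries received TGF-β, a cytokine that turns fibroblasts into contractile myofibroblasts, at 5 ng/ml for 24 h, and a culture without TGF-β was not analysed here. The vector is an adenovirus according to the study's text and an adeno-associated virus according to the series' own design note, and the strain, age and number of donor mice of these cultures are not given in the sources used here. Nothing in the labels states that the 4 libraries of a group came from separate cultures, so the p-values measure the spread between these libraries, which may be technical. The legend of this experiment speaks of 3 biological replicates, while the table holds 4 libraries per group, all of which were used.

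Levels in CPM are counts of a gene scaled to the size of its library, after TMM scaling between libraries. Total counts lay between 24454801 and 28658826 per library, and replicates differed by more than counting noise (chi-square per degree of freedom of 2.69 to 8.67 over pairs of the same group). Irf7 itself (ENSMUSG00000025498, chr7:141262706-141266481, minus strand, GRCm38) had 2861, 3680, 2272 and 3291 counts in the GFP libraries and 385, 421, 380 and 404 in those labelled OEIRF7. It was therefore 7.77-fold lower where overexpression was labelled (log2 fold change -2.96, SE 0.12, edgeR quasi-likelihood adjusted p = 7.7e-11). Irf7 overlaps Phrf1 on the opposite strand, whose log2 fold change was -0.09 (adjusted p = 0.058). The list of reagents describes the adenoviral insert as human IRF7, which has no entry of its own among these mouse genes. Crossed labels and a fall of the mouse gene beside a vector transcript that was not counted cannot be told apart from these counts, so every direction below rests on the labels as deposited.

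As background, ANGPT1 is the main agonist of the receptor TIE2 on endothelial cells and stabilises vessels, ANGPT2 acts on the same receptor as a partial agonist or antagonist depending on context, and mouse ANGPT4 is a further ligand of it. The angiopoietin-like proteins share the fold of the angiopoietins but do not bind TIE2, and ANGPTL4 is best known as an inhibitor of lipoprotein lipase. VEGF-B binds VEGFR1 (gene Flt1), VEGF-C binds VEGFR3 and, once cut by proteases, VEGFR2 (gene Kdr), and VEGFR2 is the main signalling receptor of endothelial cells while VEGFR1 mostly sequesters ligand.

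All 10 genes passed the filter on low counts. Of these, 5 were higher in the libraries labelled OEIRF7 (Angptl4, Angpt4, Kdr, Vegfc and Angpt2), 4 were lower (Angpt1, Angptl1, Vegfb and Angptl2) and Flt1 did not pass the test. Among all 13533 genes tested, 29.0% were called higher and 29.9% lower at an adjusted p under 0.05, 58.9% in all, so calls in either direction were common in this comparison. The same shares are the background for the counts of called genes in every list below. The 4 members with a log2 fold change past 1 in size were Angptl4, Angpt4, Angpt1 and Angptl1, against 8.56% of the tested genes. Angpt4 (log2 fold change 1.004) and Angptl1 (-1.03) lay just past that limit, and without GFP replicate 3 or without OEIRF7 replicate 2 only 2 members were past it. The GFP and OEIRF7 values did not overlap in 8 of the 10 genes, a property shared by 53.8% of the tested genes. The median log2 fold change of the members was 0.15, beside 0.00 over all tested genes.

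**Figure D1:**
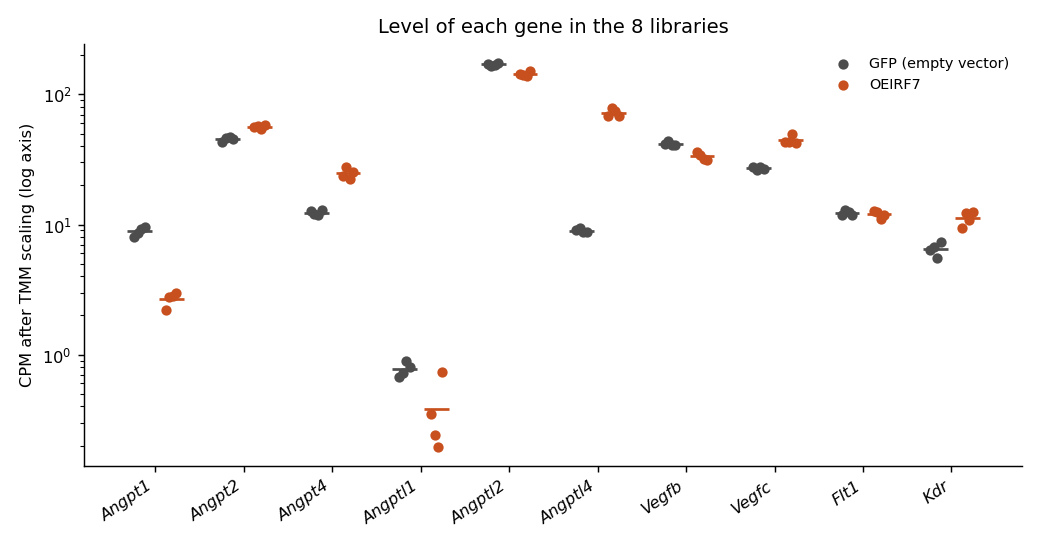
Level of the 10 genes in CPM (log axis), with 1 point per library, grey for the 4 GFP libraries and orange for the 4 labelled OEIRF7, and a bar at each mean. Angptl4 moved from a mean of 8.98 to 72.4 CPM, Angpt1 from 8.87 to 2.70, and the points of Flt1 and Angptl1 overlap between groups.

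Since this is bulk RNA, fewer cells of a type and less RNA per cell cannot be told apart. Fibroblast markers (Col1a1, Col1a2, Col3a1, Pdgfra, Dcn, Lum, Tcf21, Postn, Ddr2 and Thy1) summed to 3044 to 3213 FPKM in the GFP libraries and 2669 to 2807 in those labelled OEIRF7, where 1 was higher (Pdgfra), 6 were lower and 3 did not pass. The largest fall was that of Tcf21 (log2 fold change -1.33), which the study's text names as a label of quiescent cardiac fibroblasts. The others lower were Col3a1 (-0.53), Postn (-0.38), Lum (-0.35), Ddr2 (-0.25) and Col1a1 (-0.16). The study's text names periostin, the product of Postn, as the mark of activated fibroblasts, so the named genes of both states were lower. FPKM are fragments scaled by gene length and library size, so levels of different genes can be compared in this unit. The cultures also held RNA of other cells. All 12 endothelial markers were tested and summed to 90.1 to 95.2 FPKM in the GFP libraries and 97.1 to 102 in the others, and 8 macrophage markers summed to 198 to 234 and 238 to 274.5 FPKM. Of 7 cardiomyocyte markers only Tnnt2 passed the filter on low counts.

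The promoters of Vegfb and Vegfc and of Flt1 and Kdr are shown first, since within each of these pairs the paralogs changed unequally. Each line gives the 100 bases before the RefSeq transcription start (GRCm38.p6), 5′ to 3′ on the strand of the gene, with CpG dinucleotides in capitals, for Vegfb (lower, chr19:6987652-6987751, minus strand), Vegfc (higher, chr8:54077432-54077531, plus strand), Flt1 (not past the test, chr5:147726012-147726111, minus strand) and Kdr (higher, chr5:75978456-75978555, minus strand).
Vegfb: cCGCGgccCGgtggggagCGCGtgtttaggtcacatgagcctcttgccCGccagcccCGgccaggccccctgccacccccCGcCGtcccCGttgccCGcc
Vegfc: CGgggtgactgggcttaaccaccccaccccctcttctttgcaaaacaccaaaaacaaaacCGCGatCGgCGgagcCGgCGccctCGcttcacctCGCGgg
Flt1: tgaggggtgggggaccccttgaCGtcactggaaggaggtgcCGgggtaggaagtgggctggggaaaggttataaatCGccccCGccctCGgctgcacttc
Kdr: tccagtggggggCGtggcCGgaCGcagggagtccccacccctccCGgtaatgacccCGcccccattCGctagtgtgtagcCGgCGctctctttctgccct

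RefSeq promoters were at hand for 7 of the 10 genes, namely Angpt4, Angptl1, Angptl2, Vegfb, Vegfc, Flt1 and Kdr. In the 250 bases before the start there were 30 CpG in Vegfc, 26 in Vegfb, 23 in Flt1 and 16 in Kdr, beside a median of 6 over 32851 promoters. Angptl2 (9), Angpt4 (7) and Angptl1 (6) were close to that median. CpG-rich windows thus stood before genes that rose, fell or did not pass. The RefSeq window of Angptl1 (chr1:156838773-156839072) lies inside the annotated span of that gene (chr1:156838562-156861078, plus strand). Its RefSeq start is therefore downstream of the annotated one. In windows from 250 bases before to 50 after the start, searched on both strands, none of the 7 held ACGTG (1 form of the core of the hypoxia response element, in 19.6% of all promoters), GAAANNGAA (a loose core of the interferon-stimulated response element, 8.56%) or TGANTCA (the AP-1 site, 7.81%), which says only that these letters are not in this window. The other form of the first, GCGTG, was searched after the sequences had been seen and stood in 4 of the 7 (Angpt4, Vegfb, Flt1 and Kdr) and in 32.4% of all promoters.

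Among the angiopoietins, Angpt1 fell while Angpt2 and Angpt4 rose. Angpt1 (ENSMUSG00000022309, chr15:42424723-42676977, minus strand) had 215, 214, 230 and 251 counts in GFP libraries 1 to 4 and 57, 81, 72 and 73 in OEIRF7 libraries 1 to 4. Every OEIRF7 library was well below every GFP library. Its level went from 8.87 ± 0.707 to 2.70 ± 0.333 CPM (SD, n = 4), 3.28-fold lower, with a log2 fold change of -1.72 (SE 0.12, edgeR adjusted p = 1.2e-08). An antisense gene, Gm17473, overlaps it and has no counts of its own here, and the strand setting of the counting is not given in the sources used here.

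Angpt2 (ENSMUSG00000031465, chr8:18690263-18741562, minus strand), the context-dependent TIE2 ligand, had 1153, 1155, 1164 and 1194 counts in the GFP libraries and 1459, 1660, 1393 and 1429 in those labelled OEIRF7. The groups did not overlap, but the shift was small, from 45.5 ± 1.77 to 56.6 ± 1.39 CPM (SD, n = 4). This was 1.24-fold, a log2 fold change of 0.32 (SE 0.04, edgeR adjusted p = 1.2e-05). Angpt2 lies across the microcephaly gene Mcph1 on the other strand, whose own log2 fold change was 0.07 (adjusted p = 0.50).

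Angpt4 (ENSMUSG00000027460, chr2:151911210-151945337, plus strand), which overlaps no other annotated gene, had 340, 300, 291 and 340 counts in the GFP libraries. In the libraries labelled OEIRF7 it had 608, 810, 573 and 621, so the lowest of these was above the highest GFP library, and replicate 2, the deepest library, had the most. Scaled for depth, Angpt4 rose from 12.4 ± 0.554 to 24.8 ± 2.36 CPM (SD, n = 4), 2.01-fold (log2 fold change 1.004, SE 0.07, edgeR adjusted p = 3.1e-08). OEIRF7 replicate 2 was still the highest after scaling, at 27.9 CPM, and without it the log2 fold change was 0.94.

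The balance between the RNAs of the TIE2 ligands therefore moved, while their proteins were not measured here. In FPKM, Angpt2 exceeded Angpt1 6.15 ± 0.356 times in the GFP libraries and 25.4 ± 3.34 times in those labelled OEIRF7 (SD, n = 4), and Angpt4 exceeded Angpt1 2.56 ± 0.243 and 16.9 ± 2.22 times. In log2 CPM, the difference Angpt2 minus Angpt1 grew by 2.01 and Angpt4 minus Angpt1 by 2.69, and Angpt4 minus Angpt2 by 0.68. Each of the 3 shifts had an exact two-sided permutation p of 0.029, the smallest that 4 against 4 libraries allow, and 0.033 after Benjamini-Hochberg adjustment over the 8 pairs of paralogs compared. For the differences from Angpt1 this p followed from the opposite, non-overlapping shifts of the single genes and adds nothing to their calls. The receptor gene Tek, which encodes TIE2, had a log2 fold change of 0.14 (SE 0.06, adjusted p = 0.082), and Tie1, its orphan partner, one of 0.15 (SE 0.08, adjusted p = 0.13). Svep1, a matrix protein that binds TIE1, fell (log2 fold change -0.93, SE 0.07, edgeR adjusted p = 3.3e-08), and Ptprb, the phosphatase that opposes TIE2 signalling, was at -0.02 (adjusted p = 0.84).

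Angpt1 is also made by mural cells. Of 8 mural markers (Rgs5, Kcnj8, Abcc9, Cspg4, Notch3, Mcam, Des and Higd1b), 6 were tested, of which 3 were higher (Cspg4 at a log2 fold change of 1.5, Des at 1.08 and Rgs5 at 0.73), 2 lower (Notch3 at -1.61 and Mcam at -0.96) and 1 did not pass. They summed to 28.3 to 31.0 FPKM in the GFP libraries and 21.05 to 24.2 in those labelled OEIRF7, and the lower sum came from Mcam (means of 20.9 and 10.7 FPKM) and Notch3 (5.12 and 1.75 FPKM). The part of mural cells in the fall of Angpt1 was not tested.

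The angiopoietin-like genes held the largest change of the 10. Angptl4 (ENSMUSG00000002289, chr17:33773750-33781830, minus strand) overlaps no other annotated gene. It had 242, 233, 216 and 231 counts in the GFP libraries and 1761, 2287, 1888 and 1685 in those labelled OEIRF7. The groups were far apart compared with their own spread. The level rose from 8.98 ± 0.264 to 72.4 ± 5.10 CPM (SD, n = 4), 8.06-fold (log2 fold change 3.01, SE 0.06, edgeR adjusted p = 1.9e-13).

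Angptl2 (ENSMUSG00000004105, chr2:33216069-33247717, plus strand), a pro-inflammatory member, had 4568, 4156, 4179 and 4558 counts in the GFP libraries and 3708, 4077, 3531 and 3738 in those labelled OEIRF7. OEIRF7 replicate 2, the deepest library, came near the GFP range in raw counts, but scaled for depth the groups were clearly apart, with at most 152 CPM in the libraries labelled OEIRF7 and at least 166 in the GFP libraries. The fall was from 170 ± 3.04 to 144 ± 5.71 CPM (SD, n = 4), 1.18-fold lower (log2 fold change -0.24, SE 0.04, edgeR adjusted p = 3.4e-05). Its neighbour on the other strand, Ralgps1, overlaps it and was also lower (log2 fold change -0.59, adjusted p = 0.00021), at a mean of 9.12 CPM in the GFP libraries.

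Angptl1 (ENSMUSG00000033544, chr1:156838562-156861078, plus strand), the scarcest of the 10, had only 18, 18, 22 and 21 counts in the GFP libraries and 9, 7, 5 and 18 in those labelled OEIRF7. OEIRF7 replicate 4 reached the GFP range, so the groups overlapped. The level was 0.771 ± 0.0961 against 0.379 ± 0.242 CPM (SD, n = 4), and the exact two-sided permutation test gave p = 0.086. The log2 fold change was -1.03 (95% interval -1.83 to -0.24, edgeR adjusted p = 0.026). That call was lost without GFP replicate 3 (log2 fold change -0.96, adjusted p = 0.065), GFP replicate 4 (-1.02, 0.054), OEIRF7 replicate 1 (-1.003, 0.060), OEIRF7 replicate 2 (-0.86, 0.084) or OEIRF7 replicate 3 (-0.83, 0.076). Ralgps2, on the opposite strand across Angptl1, had a mean of 23.1 CPM in the GFP libraries and a log2 fold change of -0.97 (SE 0.08, adjusted p = 7.2e-08), and reads of both cannot be told apart if the counting ignored strand.

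Against its paralogs Angptl4 rose by 3.24 (over Angptl2) and 4.02 (over Angptl1) in log2 CPM, both with an exact permutation p of 0.029 (0.033 adjusted over the 8 pairs). The p over Angptl2 followed from the opposite, non-overlapping shifts of the single genes and adds nothing to their calls. Angptl2 minus Angptl1 differed by 0.78, which did not pass (exact permutation p = 0.11, also 0.11 adjusted), and without OEIRF7 replicate 4 that difference was 1.07 (adjusted p = 0.029). On the FPKM scale Angptl2 was 12.9 ± 0.614 times as abundant as Angptl4 in the GFP libraries and 1.33 ± 0.143 times in those labelled OEIRF7 (SD, n = 4).

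Of the 3 lipase genes and partners tested beside Angptl4, 1 was higher, beside 29.0% of all tested genes. Lipg, which encodes endothelial lipase, rose (log2 fold change 0.74, SE 0.06, edgeR adjusted p = 3.4e-08). Lpl, lipoprotein lipase and the classic target of ANGPTL4, was at 65.6 ± 3.98 and 64.5 ± 2.69 CPM (SD, n = 4; log2 fold change -0.02, 95% interval -0.13 to 0.08), and Lmf1, its maturation factor, at 0.01 (95% interval -0.11 to 0.14). Gpihbp1, the capillary anchor of lipoprotein lipase, did not pass the filter on low counts.

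The integrin and immune receptor genes listed for angiopoietin-like proteins gave 3 higher of 5 tested, beside 29.0% of all tested genes. Itgb3 rose 3.20-fold (log2 fold change 1.68, SE 0.07, edgeR adjusted p = 1.0e-10) and Itga5 2.72-fold (1.45, SE 0.06, adjusted p = 5.0e-11). Itgb1, the partner of Itga5, rose less (0.19, SE 0.03), while Itgav at 0.01 and Pirb, a receptor on myeloid cells, at 0.23 did not pass (adjusted p = 0.76 and 0.24).

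**Figure D2:**
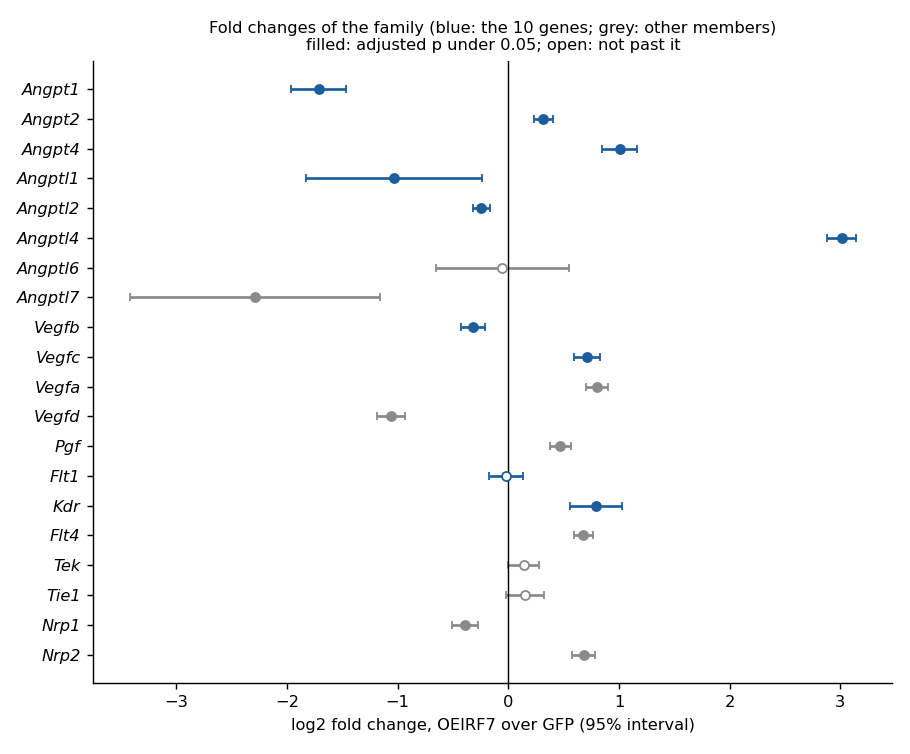
Log2 fold changes (libraries labelled OEIRF7 over GFP) with 95% intervals for the 10 genes in blue and the other tested members of the same families in grey, filled where the adjusted p was under 0.05. Within each class there are genes on both sides of 0, with Angptl4 at 3.01 and Angpt1 at -1.72 the farthest of the 10.

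The VEGF paralogs moved in opposite directions. Vegfb (ENSMUSG00000024962, chr19:6982473-6987651, minus strand), a VEGFR1 ligand linked to fatty acid handling and cardiac vessels, had 1120, 1085, 1017 and 1070 counts in the GFP libraries and 939, 988, 817 and 775 in those labelled OEIRF7. Every OEIRF7 library was below every GFP library. The fall from 41.8 ± 1.17 to 33.5 ± 2.24 CPM (SD, n = 4) was 1.25-fold (log2 fold change -0.32, SE 0.05, edgeR adjusted p = 9.3e-05).

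Vegfc (ENSMUSG00000031520, chr8:54077606-54187096, plus strand), the principal lymphatic growth factor, had 744, 660, 687 and 705 counts in the GFP libraries and 1120, 1259, 1253 and 1040 in those labelled OEIRF7. No library of one group entered the range of the other. It rose from 27.2 ± 0.680 to 44.5 ± 3.16 CPM (SD, n = 4), 1.64-fold (log2 fold change 0.71, SE 0.05, edgeR adjusted p = 4.4e-08). Vegfb exceeded Vegfc 3.04 ± 0.144 times in FPKM in the GFP libraries and 1.49 ± 0.156 times in those labelled OEIRF7. The shift of Vegfc minus Vegfb was 1.03 in log2 CPM (exact permutation p = 0.029, 0.033 adjusted over the 8 pairs). That p followed from the opposite, non-overlapping shifts of the single genes and adds nothing to their calls.

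Around these paralogs, Vegfa, the main ligand of VEGFR2, rose 1.75-fold, from 246 ± 6.36 to 429 ± 32.8 CPM (SD, n = 4; log2 fold change 0.80, edgeR adjusted p = 2.3e-09). Pgf, placental growth factor, rose 1.38-fold (0.47, adjusted p = 4.7e-07). Vegfd, the closest paralog of Vegfc, fell 2.08-fold (-1.06, adjusted p = 1.3e-09), with 899 to 953 counts in the GFP libraries and 409 to 507 in the others. So the lymphatic ligand genes Vegfc and Vegfd also went opposite ways.

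The sum of the 5 VEGF ligand genes was 171 ± 3.96 FPKM in the GFP libraries and 242 ± 9.25 in those labelled OEIRF7 (SD, n = 4). Of this sum Vegfb held 19.6% ± 0.287 and then 11.3% ± 0.982, and Vegfd 10.2% ± 0.415 and then 3.52% ± 0.189. Vegfa grew from 52.2% ± 0.515 to 66.1% ± 0.832, and Vegfc from 6.46% ± 0.242 to 7.59% ± 0.217. Each of these 4 shares differed with an exact two-sided permutation p of 0.029 (0.036 adjusted over the 5 genes). The shares of a library make up a whole, so these tests are not separate results. A larger share of Vegfa leaves less for the others, and Vegfb itself went from a mean of 33.4 to 27.2 FPKM. The share of Pgf, 11.6% ± 0.253 and 11.5% ± 0.305, differed by -0.06 percentage points (exact permutation p = 0.83), although its level rose. With counts not divided by length the differences in share were smaller for Vegfb (-5.02 points in place of -8.32) and Vegfc (0.71 in place of 1.13) and larger for Pgf (-0.55, adjusted exact permutation p = 0.086).

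**Figure D3:**
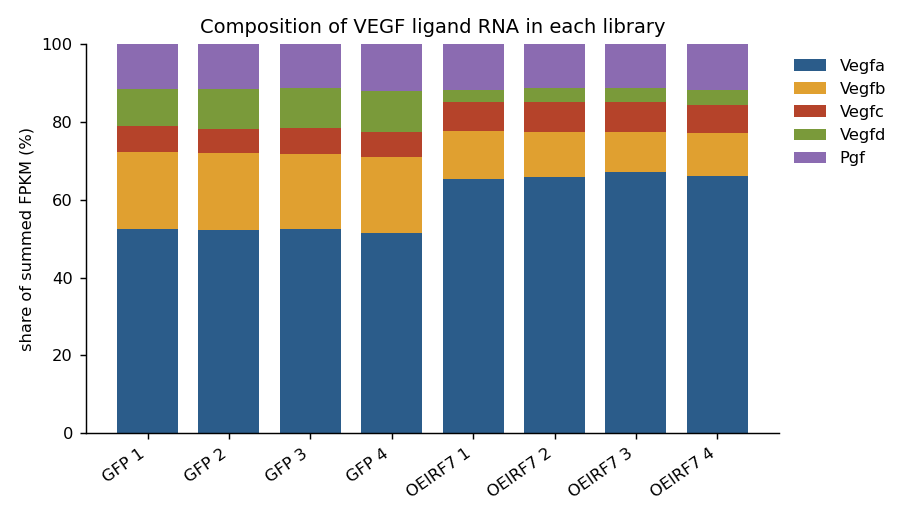
Share of each VEGF ligand gene in the summed FPKM of the 5 genes (percent, stacked to 100) in each of the 8 libraries. Vegfb narrows from a mean of 19.6% to 11.3% and Vegfd from 10.2% to 3.52%, Vegfa widens from 52.2% to 66.1%, and Pgf stays between 11.2% and 12.0%.

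VEGF-C is secreted as a precursor. Of 5 genes for its processing, 2 were higher, 1 lower and 2 did not pass (all tested genes: 29.0% higher, 29.9% lower). Ccbe1, which recruits the protease that activates VEGF-C, had 152, 148, 152 and 145 counts in the GFP libraries and 423, 484, 524 and 419 in those labelled OEIRF7. That rise was 3.03-fold (log2 fold change 1.60, SE 0.09, edgeR adjusted p = 1.6e-09), larger in size than that of Vegfc itself. Adamts3, the protease in question, was scarce at 0.553 ± 0.187 and 0.948 ± 0.643 CPM (SD, n = 4) and did not pass (0.76, adjusted p = 0.14). Of the proprotein convertases, Furin rose slightly (0.15, adjusted p = 0.020), Pcsk5 fell (-0.25, adjusted p = 0.010) and Pcsk7 was at 0.09 (adjusted p = 0.17).

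The receptor genes split as well, since Kdr rose and Flt1 did not pass the test. Flt1 (ENSMUSG00000029648, chr5:147561604-147726011, minus strand) had 319, 320, 307 and 309 counts in the GFP libraries and 328, 361, 281 and 293 in those labelled OEIRF7. The groups overlapped, at 12.2 ± 0.481 and 12.0 ± 0.743 CPM (SD, n = 4). The log2 fold change was -0.02 with a 95% interval from -0.18 to 0.13 (edgeR adjusted p = 0.79), and its sign turned under some settings. The annotation lists 6 transcripts of Flt1, and counts per gene do not separate the membrane-bound form from the soluble one.

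Kdr (ENSMUSG00000062960, chr5:75932827-75978458, minus strand) had 171, 167, 136 and 194 counts in the GFP libraries and 244, 357, 277 and 306 in those labelled OEIRF7. Each OEIRF7 library was above the highest GFP library, though both groups spread widely for their mean. The level rose from 6.50 ± 0.783 to 11.3 ± 1.39 CPM (SD, n = 4), 1.73-fold (log2 fold change 0.79, SE 0.11, edgeR adjusted p = 2.0e-05).

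The ratio of Flt1 to Kdr in FPKM was 1.70 ± 0.251 in the GFP libraries and 0.967 ± 0.155 in those labelled OEIRF7 (SD, n = 4). In log2 CPM, Kdr minus Flt1 grew by 0.81 (exact permutation p = 0.029, 0.033 adjusted over the 8 pairs). Without GFP replicate 3, the library with the fewest Kdr counts, the shift was 0.73 with an adjusted p of 0.065.

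Among the other receptors, Flt4 (VEGFR3, the receptor of VEGF-C on lymphatic endothelium) rose 1.60-fold (log2 fold change 0.68, SE 0.04, edgeR adjusted p = 3.0e-09), and so did the co-receptor gene Nrp2 (1.60-fold, 0.68, adjusted p = 2.0e-08). Nrp1, a co-receptor of VEGFR2, fell (-0.39, SE 0.06, adjusted p = 2.2e-05). With Tek and Tie1, which did not pass, this made 2 higher and 1 lower of the 5 other receptor and co-receptor genes. Over all tested genes the shares were 29.0% higher and 29.9% lower.

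Receptor RNA is usually read as endothelial, so the endothelial list stands beside it. Of the 12 markers, 4 were higher (Vwf at a log2 fold change of 0.49, Cldn5 at 0.48, Esam at 0.33 and Emcn at 0.29), 1 was lower (Cdh5 at -0.11) and 7 did not pass, with a median of 0.09. Pecam1 was at -0.01 and Cdh5, the cadherin of endothelial junctions, was at 24.9 and 23.5 FPKM in the group means. The log2 fold changes of Kdr (0.79) and Flt4 (0.68) were above all 12, and that of Flt1 was within their range. Of 5 lymphatic endothelial markers, Ccl21a was at 0 in all 8 libraries, Reln was higher (0.62) and Prox1, Lyve1 and Mmrn1 did not pass. They summed to 1.94 to 2.26 FPKM in the GFP libraries and 1.81 to 2.37 in the others. The part of endothelial cells in the rise of Kdr was not tested.

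**Figure D4:**
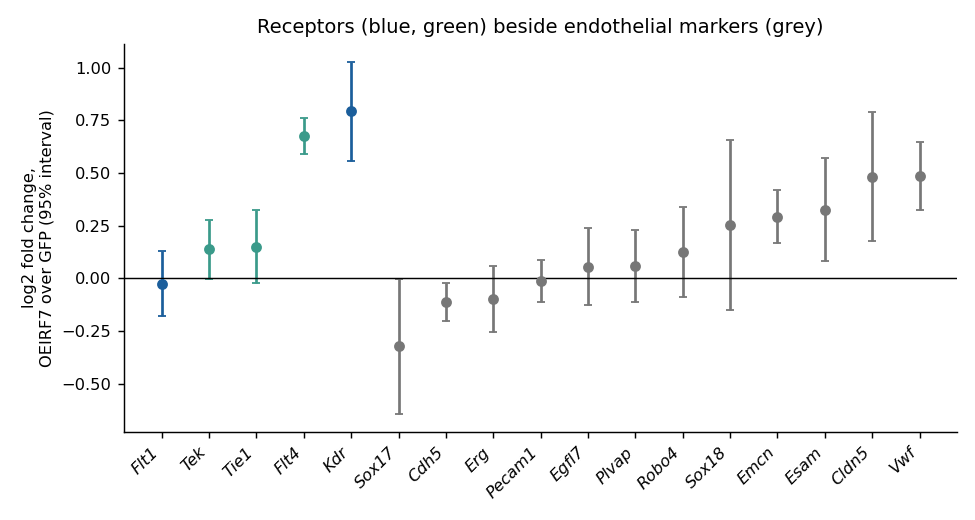
Log2 fold changes (libraries labelled OEIRF7 over GFP) with 95% intervals for Flt1 and Kdr in blue, Tek, Tie1 and Flt4 in green and 12 endothelial markers in grey. Kdr at 0.79 and Flt4 at 0.68 lie above the highest marker, Vwf at 0.49, although the intervals of both overlap those of several markers.

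Per length, the order of the 10 genes also changed. In the GFP libraries mean FPKM ran from Angptl2 (50.9 ± 0.985, SD, n = 4) through Vegfb (33.4), Angpt2 (12.7), Vegfc (11.01), Angpt4 (5.25), Angptl4 (3.96), Angpt1 (2.06), Flt1 (1.82) and Kdr (1.08) down to Angptl1 (0.333). Only the neighbours Angpt1 and Flt1 overlapped between libraries. In the libraries labelled OEIRF7 the order was Angptl2 (43.5 ± 1.91), Angptl4 (32.9), Vegfb (27.2), Vegfc (18.4), Angpt2 (16.04), Angpt4 (10.7), Kdr (1.92), Flt1 (1.83), Angpt1 (0.637) and Angptl1 (0.170), where only Kdr and Flt1 overlapped. Angptl4 thus went from rank 6 to rank 2, and Angpt1 from rank 7 to rank 9. In both groups the ligand genes other than Angpt1 and Angptl1 lay above the receptor genes.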

How the data were processed

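RNA-seq of 8 libraries of primary murine cardiac fibroblasts was analysed. Reads were trimmed and aligned to GRCm38 with HISAT2 by the authors, who deposited raw counts per gene from HTSeq-count, with no normalization. The authors also deposited FPKM from Cufflinks, scaled by gene length and library size and rounded to 2 decimals. Tool versions and the strand setting are not given in the sources used here, and the labels and the study's text name different library kits. The deposited group means, log2 ratios, p-values and FDR hold the authors' own comparison and were not used. In 121 symbols the letters nc had been replaced by GFP, and these were restored by identifier. Of 22274 identifiers, 22219 were found in GENCODE M21.

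The quasi-likelihood test of edgeR 4.0.16 (R 4.3.3; filterByExpr, TMM, no covariates) compared the groups, and p-values were adjusted by Benjamini-Hochberg over 13533 genes, with a threshold of 0.05. Log2 CPM used a prior count of 2. SE is that of the log2 fold change. Paralog differences and ligand shares were tested by exact two-sided permutation. TMM factors lay between 0.989 and 1.01. Genes below 1 CPM rest on few counts. Alternatives were DESeq2 1.42.0, 2 other scalings, 2 other filters, limma 3.58.1 on log2(FPKM + 1) and log2(FPKM + 0.1), the replicate block, another prior count, ligand shares from counts not divided by length, the study's thresholds and leaving out each library. The genes named are the 10 members, the listed relatives, partners, PPAR targets and cell markers, Irf7 and, for the 2 members with the largest changes, the 3 most alike genes. Genes that overlap a member or Irf7 were added for their position. The members and lists were chosen with earlier results of these data known. The fits were tested on simulated data. RefSeq promoters (GRCm38.p6) were matched by symbol.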

Additional observations from a re-analysis of the deposited data

How the results depend on the processing

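Each fold change was recomputed under up to 17 alternatives. The 8 members other than Flt1 and Angptl1 kept their direction and their call in all 136 values. Members past a log2 fold change of 1 numbered 4, and 1 by limma on log2(FPKM + 1) with or without a filter on low values, where the pseudocount shrinks low genes; leaving out 1 library gave 2 to 4. Of all genes, 1158 were past it, against 435 by limma on log2(FPKM + 1) and 434 with no filter. The study's thresholds (unadjusted p below 0.05 with a ratio above 1.5 or below 0.66) were also applied to the edgeR values. By them 2576 genes were called in place of 7969, and 6 members in place of 9. The study itself used DESeq and reports a larger total. The log2 fold change of Flt1 turned positive but stayed near 0 with no scaling beyond library size (0.0028), by limma on log2(FPKM + 1) (0.0032 with and without a filter) and on log2(FPKM + 0.1) (0.0044), and ran from -0.053 to 0.014 with 1 library left out. Leaving out 1 library gave -1.54 to -0.83 for Angptl1, 0.59 to 1.07 for Angptl2 minus Angptl1, 0.73 to 0.92 for Kdr minus Flt1 and -0.17 to 0.06 points for the share of Pgf, whose sign turned without GFP replicate 4 (0.061), OEIRF7 replicate 2 (0.041) or OEIRF7 replicate 3 (0.014). By limma on log2(FPKM + 1) the log2 fold changes of low genes were smaller, -0.90 for Angpt1, 0.48 for Kdr and -0.19 for Angptl1, and on log2(FPKM + 0.1) Angptl2 minus Angptl1 was 0.48. Angptl1 was not tested at a minimum of 10 counts in every library. With the replicate block 5 members were higher and 4 lower, and 4057 and 4154 of all genes, so the block changed no call of a member. Libraries of the same number had deviations correlated at 0.0792, 0.0953, 0.138 and 0.104. This is not above 0.1 throughout, so the numbers were not taken to pair the samples, although each library correlated best with its own number. The exact permutation tests ignored the numbers, and splits within pairs would be too few to reach a p under 0.05. Depth limits Angptl1 most, at 5 to 22 counts per library.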

Other observations

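Angptl4 is known as a target of the PPAR nuclear receptors, which control fatty acid use, so 12 other PPAR targets were read beside its rise. Of 11 tested, 3 were higher, 6 lower and 2 did not pass, with a median log2 fold change of -0.27 (all tested genes 0.00). Over all tested genes, 29.0% were called higher and 29.9% lower. The fatty acid transporter gene Cd36 rose (log2 fold change 0.79, SE 0.07, edgeR adjusted p = 1.0e-07), as did Fabp4 (0.49) and the lipid droplet gene Plin2 (0.29). Among those lower were Pdk4, a kinase that restrains pyruvate oxidation (-0.79), Cpt1a, the entry enzyme of mitochondrial fatty acid oxidation (-0.53), Acaa2 (-0.43), Acadm (-0.29) and Cpt2 (-0.27). Acadvl (0.01) and Slc25a20 (0.00) did not pass, and Ucp3 did not pass the filter on low counts. The part of PPAR receptors in the rise of Angptl4 was not tested.

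By Pearson correlation of log2 CPM over the 8 libraries, the genes most like Angptl4 were B4galt5 (r = 0.999), a galactosyltransferase gene, Scin (0.999), which encodes an actin-severing protein, and Tmeff1 (0.998). Their log2 fold changes were 1.59, 3.80 and 1.29. Most like Angpt1 were Irs1 (0.997), the insulin receptor substrate gene, Gal3st2 (0.996) and Vegfd (0.996), with log2 fold changes of -0.95, -0.48 and -1.06. Both groups enter these correlations, so the gap between groups counts in them, and 225 genes were above 0.99 for Angptl4 and 49 for Angpt1.

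Of the other angiopoietin-like genes, Angptl7 was lower (log2 fold change -2.29, SE 0.53, edgeR adjusted p = 0.0017) but stood at 0.947 ± 0.491 and 0.182 ± 0.168 CPM (SD, n = 4), and Angptl6 was at -0.05 (adjusted p = 0.88). Angptl8, a regulator of lipoprotein lipase, did not pass the filter on low counts. Among epicardial markers (Wt1, Upk3b, Msln, Krt19 and Upk1b), 2 were higher, 1 lower and 2 did not pass, with summed levels of 27.2 to 31.5 FPKM in the GFP libraries and 27.4 to 32.8 in those labelled OEIRF7. Of the 8 macrophage markers 4 were higher and 4 did not pass.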
